A study of Homo sapiens with 15 samples.

Results

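The secreted cystatins described here are the 6 type 2 cystatin genes CST1 to CST6, 6 of the 58381 genes counted in RNA-seq libraries of the prostate cancer cell line VCaP. They were taken by name, and the family was chosen by the counts of CST2 and CST5, which are far higher in one subline, VCaP-T, than in the sublines derived from it. Levels in VCaP-T against the other sublines are therefore given as a description, without a test. Differences among the 4 later sublines, which that choice did not use, were tested.

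Cystatins of type 2 are small proteins with a signal peptide that are secreted and bind the active-site cleft of papain-like cysteine proteases, such as the lysosomal cathepsins, tightly but reversibly. CST1 (cystatin SN), CST2 (cystatin SA) and CST4 (cystatin S) are the salivary-type cystatins. CST5 encodes cystatin D, also found in saliva and tears, and CST3 encodes cystatin C, made by most cell types and abundant in seminal plasma. CST6 encodes cystatin E/M, which also inhibits the asparaginyl protease legumain. All but CST6 lie in the cystatin cluster of chromosome 20.

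VCaP is an established line grown from a bone metastasis of prostate cancer, and 3 biological replicates of each of 5 sublines were sequenced. VCaP-T was kept in 10 nM testosterone for 7 months, and VCaP-CT is VCaP-T after 10 more months at 0.1 nM testosterone, a model of androgen deprivation. VCaP-CT cells made resistant to the antagonist enzalutamide at 10 µM are the enzalutamide-resistant subline VCaP-CT-ER. VCaP-CT cells made resistant to the older antagonist bicalutamide are the bicalutamide-resistant subline VCaP-CT-BR, and those cells, once also resistant to enzalutamide, are the doubly resistant subline VCaP-CT-BR-ER. The sample labels give 10 nM testosterone for every subline, and for the bicalutamide-resistant one they also mention enzalutamide after bicalutamide, so the exact medium of the later sublines is uncertain. One derivation per subline is described, so treatment, time in culture and derivation cannot be told apart, and p-values measure only the spread between libraries of that derivation.

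Between 33665716 and 46935279 fragments were counted per library, so 3 counts, used as the floor of detection, stand for 0.0639 to 0.0891 counts per 1000000 counted fragments (CPM). Across genes, which are not independent replicates, each of the 15 libraries correlated best with another of the same subline (at least 0.9913 within sublines, at most 0.9802 between them). All 12 luminal prostate markers exceeded 1 CPM in every library, and their summed level was 26290 to 26920 CPM in VCaP-T and 13420 to 20500 CPM in the later sublines. Of the other markers, the 3 basal ones summed to at most 11.1 CPM, the 4 immune ones to at most 1.02 CPM and the 3 endothelial ones to at most 16.3 CPM, with the highest basal and endothelial sums in VCaP-T. Some of these markers were highest in VCaP-T, as CST1, CST2, CST4 and CST5 were. The basal keratin KRT14 had a mean of 10.1 CPM in VCaP-T, then 2.52 in VCaP-CT and at most 1.02 in a resistant subline. The endothelial VWF was at 12 CPM in VCaP-T, then 6.03 in VCaP-CT and at most 1.00 in the others, and PECAM1 had 2.94, 2.57 and at most 0.121 CPM. The defining markers KRT5 (basal), PTPRC (immune) and CDH5 (endothelial) were each at or under 0.0636 CPM, and CD3E was at 0. The 3 neuroendocrine markers summed to 54.1 to 77.6 CPM over all libraries, with SYP at 33 CPM in VCaP-T but 6.11 or less in later sublines, ENO2 at 21.9 CPM in VCaP-T and at least 54.4 later, and CHGA at 0 outside VCaP-T. The summed level of the 5 fibroblast markers moved the other way. It was 7.02 to 7.77 CPM in VCaP-T and 217 to 250 CPM in the doubly resistant subline. Nearly all of the latter was LUM (lumican), while COL1A2 stayed at 0. COL1A1 did not share this rise: its mean was highest for VCaP-T, at 6.56 CPM, and at most 1.01 CPM for any later subline. The part of these markers in the cystatin results was not tested.

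The salivary-type genes are so alike that they were first compared as sequences. The coding sequences, from GENCODE release 44 on GRCh38, were 91.3% identical between CST1 and CST2, 92.7% between CST1 and CST4 and 92.4% between CST2 and CST4. CST2 shared 74.2% of its aligned coding bases with CST5, 71.9% with CST3 and 46.4% with CST6. A stretch of 90 coding bases across the junction of exons 1 and 2, around the conserved loop that enters the protease cleft, is shown because it displays both the likeness and the differences that place a read. Capitals mark each base that differs from CST2.
CST2: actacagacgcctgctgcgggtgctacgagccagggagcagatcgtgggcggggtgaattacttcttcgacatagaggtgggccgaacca
CST1: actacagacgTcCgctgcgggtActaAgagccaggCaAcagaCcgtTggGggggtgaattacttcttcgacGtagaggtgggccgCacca
CST4: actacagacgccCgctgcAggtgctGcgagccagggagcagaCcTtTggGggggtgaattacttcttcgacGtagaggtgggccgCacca
CST5: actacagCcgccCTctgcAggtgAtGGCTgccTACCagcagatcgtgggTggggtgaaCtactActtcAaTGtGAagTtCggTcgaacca
CST3: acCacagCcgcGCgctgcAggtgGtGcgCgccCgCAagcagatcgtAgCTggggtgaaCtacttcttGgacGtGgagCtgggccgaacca
CST6: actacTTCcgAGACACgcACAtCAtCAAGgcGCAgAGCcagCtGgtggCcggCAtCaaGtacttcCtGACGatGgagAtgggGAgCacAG

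Over these 90 bases CST4 differed from CST2 at 9, CST1 at 11, CST3 at 19, CST5 at 24 and CST6 at 43. Of all stretches of 75 bases in the canonical transcripts, 13.9% in CST1, 13.9% in CST4 and 1.93% in CST2 also occurred in another of the 6 genes, and none did in CST3, CST5 or CST6. The share depends on the length taken, and read length is not given. At 50 bases it was 27.4% in CST1, 30% in CST4, 8.32% in CST2 and 0.283% in CST5. At 100 bases it was 8.15% in CST1, 8.15% in CST4 and 0% in CST2. Fragments that fit more than 1 place were not counted by the authors, so the counts of CST1, CST2 and CST4 come from their distinct parts. Exchange of reads between these 3 genes was not tested.

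CST2 (chromosome 20, 23823769 to 23826731 on GRCh38, minus strand) was among the most abundant transcripts of VCaP-T. It had 401640, 373677 and 419152 counts in the 3 VCaP-T libraries, 1.03% ± 0.053 (SD, n = 3) of all counted fragments, and ranked 4 or 5 among the genes of each library. It had 478, 577 and 551 counts in VCaP-CT. The enzalutamide-resistant libraries held 22, 9 and 7 counts, the bicalutamide-resistant ones 13, 49 and 81, and the doubly resistant ones 70, 49 and 1. Thus no later library came near VCaP-T, VCaP-CT lay above all 9 resistant libraries, and those 9 overlapped between sublines. In CPM scaled with TMM, the level was 10360 ± 618 in VCaP-T and 15.4 ± 1.0 in VCaP-CT. It was 0.273 ± 0.159 CPM in the enzalutamide-resistant, 1.21 ± 0.84 in the bicalutamide-resistant and 1.02 ± 0.88 in the doubly resistant subline. VCaP-T exceeded VCaP-CT 670-fold (95% interval 638 to 704, which covers counting error only, as do the other intervals of ratios to VCaP-T). In bulk RNA, fewer cells that express a gene and less of its RNA per cell cannot be told apart.

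CST1 (chromosome 20, 23747553 to 23751268, minus strand) also stepped down from VCaP-T to VCaP-CT and from there to the resistant libraries. It had 7319, 7068 and 8035 counts in VCaP-T and 248, 250 and 289 in VCaP-CT. The resistant libraries held 48, 64 and 30 counts (enzalutamide), 29, 29 and 44 (bicalutamide) and 36, 43 and 34 (both). The 3 VCaP-CT libraries stood apart from both sides, and the 9 resistant ones overlapped. VCaP-T exceeded VCaP-CT 25.6-fold (23.9 to 27.6) and the resistant sublines 186-fold (enzalutamide), 223-fold (bicalutamide) and 200-fold (both).

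CST4 (chromosome 20, 23685640 to 23689040, minus strand) had 2701, 2521 and 2905 counts in VCaP-T and 52, 61 and 76 in VCaP-CT. Few counts were left in the resistant libraries, with 10, 17 and 7 after enzalutamide, 14, 11 and 11 after bicalutamide and 7, 9 and 14 after both. Again VCaP-CT lay between VCaP-T and the resistant libraries without overlap, and VCaP-T exceeded VCaP-CT 38.7-fold (33.5 to 45).

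CST5 (chromosome 20, 23875935 to 23879750, minus strand) had 1021, 920 and 925 counts in VCaP-T. Of the later libraries only replicates 2 and 3 of VCaP-CT had any, 3 counts each, and the other 10 had 0. VCaP-T exceeded VCaP-CT 430-fold (197 to 1170), a ratio that rests on 6 counts. Against a floor of 3 counts per library, CST5 was at least 376-fold higher in VCaP-T than in the enzalutamide-resistant, at least 325-fold higher than in the bicalutamide-resistant and at least 322-fold higher than in the doubly resistant subline. CST5 passed the filter on low counts only through VCaP-T.

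CST3 (chromosome 20, 23626706 to 23638473, minus strand) did not follow its neighbours. Its counts were 5260, 4846 and 6288 in VCaP-T and 4803, 5517 and 5085 in VCaP-CT. They were 5827, 5812 and 4596 in the enzalutamide-resistant, 4042, 4774 and 4552 in the bicalutamide-resistant and 4385, 4516 and 4239 in the doubly resistant libraries. In CPM the level was 141.6 ± 8.5 in VCaP-T and 148.1 ± 8.0 in VCaP-CT. The resistant sublines had 118.7 ± 4.0 (enzalutamide), 114.2 ± 10.1 (bicalutamide) and 113.4 ± 8.2 (both). VCaP-T and VCaP-CT overlapped, the 3 resistant sublines overlapped with each other, and on the CPM scale all 9 resistant libraries lay below all 6 libraries of VCaP-T and VCaP-CT.

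CST6 (chromosome 11, 66011841 to 66013505, plus strand) had 0 counts in all 15 libraries, which allows at most 0.0639 to 0.0891 CPM per library. It was not tested, so 5 of the 6 genes entered the fit, and 4 of them would have passed the filter without the VCaP-T libraries.

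**Figure D1:**
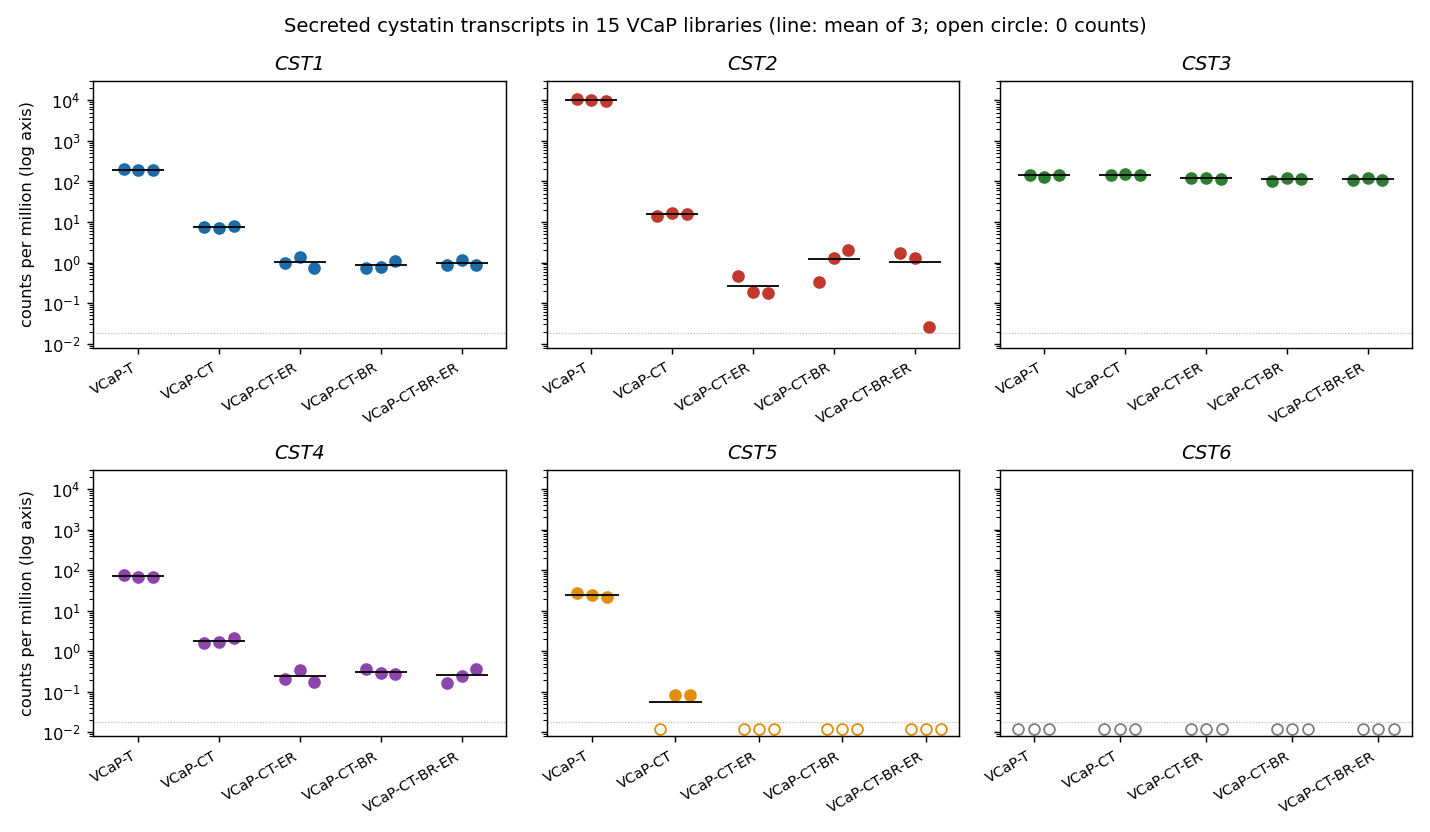
Level of each of the 6 secreted cystatin genes in the 15 libraries, in CPM on a log axis, by subline; filled points are libraries, lines are means of 3 and open circles below the dotted line are libraries with 0 counts. CST1, CST2 and CST4 step down from VCaP-T to VCaP-CT and again to the resistant sublines, CST3 stays between 104.8 and 157.1 CPM, CST5 is at 0 in 10 later libraries and CST6 is at 0 in all 15.

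The RefSeq promoter table used held 2 of the 6 genes, CST3, whose mean lay between 113.4 and 148.1 CPM in every subline, and CST5, of which VCaP-T held all but 6 counts. They are shown as the 250 bases before the start annotated in RefSeq, with capitals marking CG pairs. The windows (GRCh38.p14, chr20:23637956-23638205 and chr20:23879749-23879998, both minus strand) are written 5′ to 3′ in the direction of the gene. The CST3 window lies wholly inside the gene as counted, which on the minus strand starts at 23638473, so the annotations place the CST3 start differently.
CST3: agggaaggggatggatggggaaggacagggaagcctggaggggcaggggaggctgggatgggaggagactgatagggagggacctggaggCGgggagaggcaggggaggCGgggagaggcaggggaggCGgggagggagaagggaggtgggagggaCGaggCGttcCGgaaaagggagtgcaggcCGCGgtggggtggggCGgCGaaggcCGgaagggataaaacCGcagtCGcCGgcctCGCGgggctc
CST5: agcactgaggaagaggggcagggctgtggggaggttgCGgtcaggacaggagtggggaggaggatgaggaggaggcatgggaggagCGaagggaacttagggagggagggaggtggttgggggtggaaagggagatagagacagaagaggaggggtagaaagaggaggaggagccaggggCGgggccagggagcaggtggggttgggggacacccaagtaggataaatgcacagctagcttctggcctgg

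The CST3 promoter held 16 CG pairs in 250 bases and the CST5 promoter 3. The median over 35116 promoters of this length was 11, with fewer than CST3 in 59% of them and fewer than CST5 in 22.9%. The GC content was 70.8% for CST3 and 62.4% for CST5. The CG pairs were counted after the sequences had been seen. The palindromic androgen response element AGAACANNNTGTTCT, searched on both strands, was in neither window and in 0.00285% of all promoters. Its 6-base arm AGAACA, which lies within the longer element, was in neither, as against 12.4% of all promoters, and the TATAAA box was also in neither, as against 10.7%. That these letters are absent from 250 bases says nothing about binding of a factor.

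The makeup of the secreted cystatin transcripts changed with the levels. Levels between genes were compared per kilobase of exon. In VCaP-T, CST2 had 13860 CPM per kb, CST1 222.9, CST4 93.8, CST3 38.3 and CST5 33.0. CST2 thus made up 97.3% ± 0.051 (SD, n = 3) of the summed CPM per kb of the family. In VCaP-CT the leading transcript was CST3, with 55.8% ± 1.6, followed by CST2 with 28.7% ± 0.72, CST1 with 12.1% ± 1.1 and CST4 with 3.36% ± 0.53. In the resistant sublines CST3 held 94.5% ± 1.2 (enzalutamide), 91.2% ± 3.3 (bicalutamide) and 91.6% ± 3.1 (both). The summed level was 14245.9 ± 845.0 CPM per kb in VCaP-T, against 71.8 ± 2.98 for VCaP-CT and 33.5 to 34 for the resistant sublines. The exon length of CST3 in the counting annotation, 3695 bases, is far above the 793 bases of its canonical transcript, and with the latter CST3 made up 1.24% in VCaP-T, then 84.9% in VCaP-CT and 97.8% to 98.6% in the resistant sublines. With either length the leading gene was CST2 in VCaP-T and CST3 in each later subline.

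**Figure D2:**
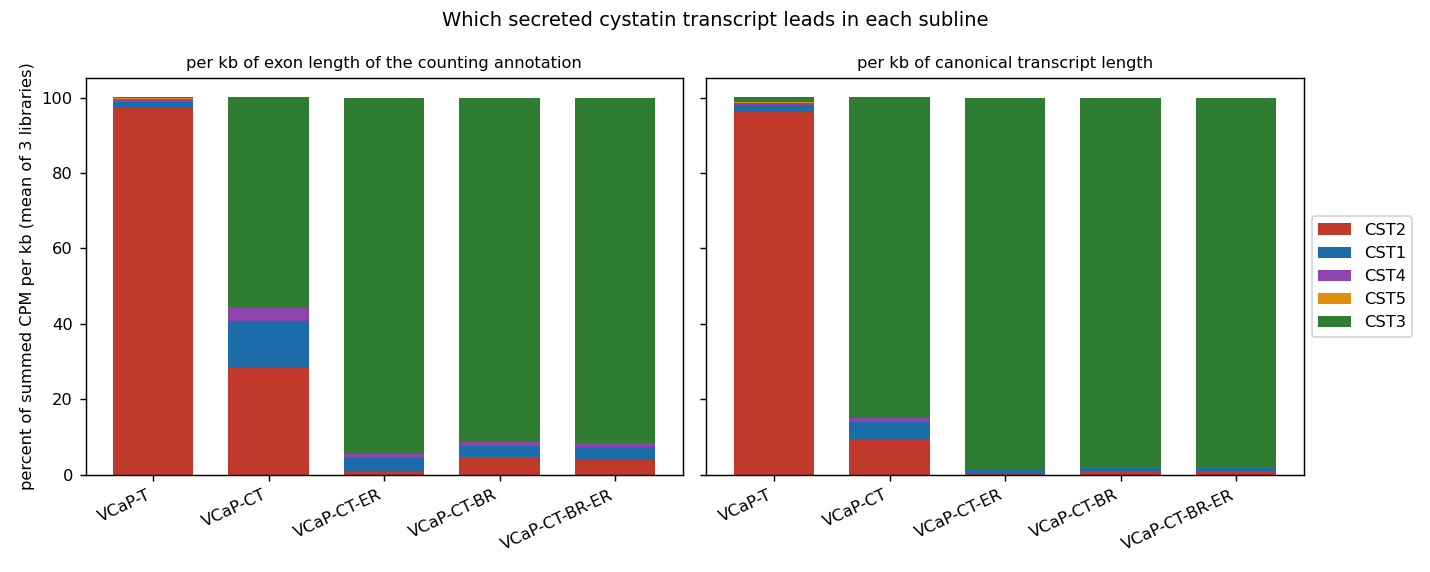
Percent of the summed CPM per kb held by each secreted cystatin gene in each subline (mean of 3 libraries), per kb of the exon length used for counting (left) and of the canonical transcript (right). CST2 makes up 97.3% (left) or 96.1% (right) in VCaP-T, and CST3 at least 55.8% in each later subline.

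CST1 and CST4 were not lower in step with CST2. For 100 counts of CST2 there were 1.88 counts of CST1 and 0.68 of CST4 in VCaP-T, and 49 of CST1 and 11.8 of CST4 in VCaP-CT. At the VCaP-T ratio, the 1606 CST2 counts of VCaP-CT would be accompanied by 30.1 counts of CST1 and 10.9 of CST4, and 787 and 189 were counted. The ratio of CST4 to CST1 moved less. Per 100 counts of CST1 there were 36.2 of CST4 in VCaP-T and 24 in VCaP-CT. In the resistant sublines there were 23.9 (enzalutamide), 35.3 (bicalutamide) and 26.5 (both).

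Among the later sublines, the question was how resistance to each antagonist changed what expression was left in VCaP-CT. Tests were edgeR's quasi-likelihood tests over 19621 genes with Benjamini-Hochberg adjustment and a threshold of 0.05, and log2 fold changes are given with their standard errors. Of the cystatins that pass the count filter without VCaP-T, CST1 to CST4, all 4 were lower in the enzalutamide-resistant subline than in VCaP-CT, where 60.9% of all genes passed in either direction and 31.2% as lower. The log2 fold change was −5.78 ± 0.4 for CST2 (adjusted p = 7.28e-11), −2.86 ± 0.13 for CST1 (adjusted p = 9.16e-14) and −2.85 ± 0.22 for CST4 (adjusted p = 4.88e-10). CST3 was lower by far less, with −0.32 ± 0.07 (adjusted p = 0.000267). The median of these 4 genes was −2.86, beside −0.02 over all genes. CST5 entered the fit only through VCaP-T and is not counted among them, here or in the comparisons that follow. It had 6 counts against 0 (adjusted p = 0.0249). Its call was lost without VCaP-CT replicate 2 (adjusted p = 0.0757) or 3 (0.0723) and without VCaP-CT-ER replicate 1 (0.0522) or 2 (0.0533).

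The same 4 genes were lower in the bicalutamide-resistant subline than in VCaP-CT, where 53.2% of all genes passed and 27% as lower. The log2 fold change was −3.66 ± 0.32 for CST2 (adjusted p = 5.52e-09), −3.11 ± 0.14 for CST1 (adjusted p = 3.64e-13), −2.55 ± 0.22 for CST4 (adjusted p = 6.12e-09) and −0.38 ± 0.07 for CST3 (adjusted p = 6.42e-05). CST5 again had 6 counts against 0, and its call (adjusted p = 0.0365) was lost without VCaP-CT replicate 2 (0.104) or 3 (0.0927) and without any 1 of the bicalutamide-resistant libraries (0.0668 to 0.0748).

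The doubly resistant subline also lay below VCaP-CT in these 4 genes, with 52.5% of all genes past the threshold and 26.4% lower. CST2 changed by −3.9 ± 0.33 on the log2 scale (adjusted p = 2.28e-09), CST1 by −2.95 ± 0.14 (adjusted p = 2.58e-13), CST4 by −2.8 ± 0.23 (adjusted p = 1.82e-09) and CST3 by −0.39 ± 0.07 (adjusted p = 4.31e-05). Here too CST5 had 6 counts against 0, and its call (adjusted p = 0.0372) was lost without VCaP-CT replicate 2 (0.102) or 3 (0.0952) and without any 1 of the doubly resistant libraries (0.0713 to 0.0784). These 3 comparisons share the VCaP-CT libraries.

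Among the resistant sublines CST2 was the only cystatin to pass. It was higher after bicalutamide than after enzalutamide by 2.12 ± 0.65 on the log2 scale (adjusted p = 0.00904), 1 of the 4 cystatins where 55.9% of all genes passed and 28.8% as higher. Replicates 2 and 3 of VCaP-CT-BR lay above all 3 enzalutamide-resistant libraries and replicate 1 did not, and the call was lost without replicate 3 (1.52, adjusted p = 0.0979). CST2 was also higher in the doubly resistant than in the enzalutamide-resistant subline, by 1.88 ± 0.68 (adjusted p = 0.0289), again 1 of 4 where 45.9% of all genes passed and 23.3% as higher. That call was lost with DESeq2 (adjusted p = 0.082), without VCaP-CT-ER replicate 2 (0.0948) or 3 (0.0732) and without VCaP-CT-BR-ER replicate 1 (0.229) or 2 (0.0968). VCaP-CT-BR-ER replicate 3, with its single CST2 count, lay below all enzalutamide-resistant libraries. The CST2 counts behind both calls, 1 to 81 per library, are few beside the 373677 to 419152 of the VCaP-T libraries, and carry-over of reads between libraries was not tested.

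Between the bicalutamide-resistant and the doubly resistant subline 0 of the 4 cystatins passed in edgeR, 0 had an unadjusted p under 0.05 and 0 passed with DESeq2, while 42.9% of all genes passed. CST5 had 0 counts in both. The difference was 0.16 for CST1 (95% interval −0.3 to 0.62), −0.24 for CST2 (−1.37 to 0.89), −0.01 for CST3 (−0.16 to 0.14) and −0.25 for CST4 (−1 to 0.51), on the log2 scale. The intervals of CST2 and CST4 are wide, so a moderate difference in either direction was not detectable at these counts.

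**Figure D3:**
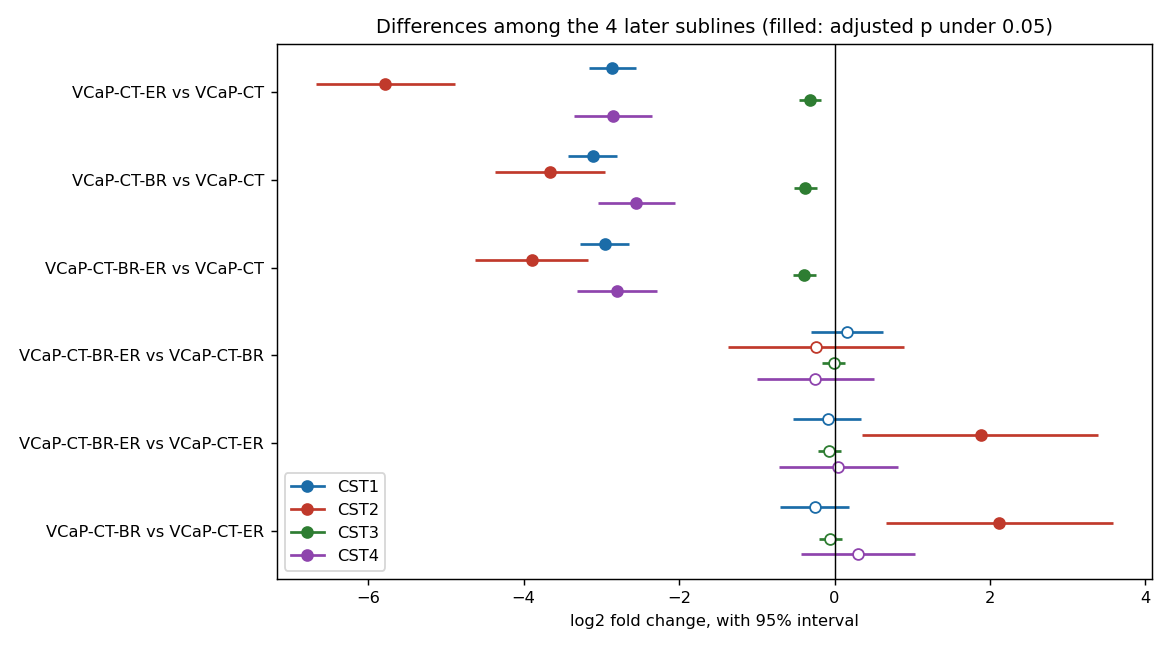
Log2 fold changes of CST1 to CST4 in the 6 comparisons among the 4 later sublines, with 95% intervals; filled points have an adjusted p under 0.05. The comparisons with VCaP-CT lie left of 0 for all 4 genes, the 3 comparisons among resistant sublines include 0 for CST1, CST3 and CST4, and CST2 is higher after bicalutamide (2.12) and after both (1.88) than after enzalutamide.

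The enzalutamide step taken after bicalutamide was compared with the step taken directly from VCaP-CT by an interaction term. The change differed for all 4 cystatins that pass the filter without VCaP-T, where 49.7% of all genes passed and 25.2% as higher. The difference was 5.54 ± 0.76 for CST2 (adjusted p = 3.7e-06), 3.02 ± 0.26 for CST1 (adjusted p = 4.17e-09), 2.6 ± 0.43 for CST4 (adjusted p = 4.04e-05) and 0.31 ± 0.09 for CST3 (adjusted p = 0.00914). These steps started from different levels, since CST2 was at 15.4 CPM in VCaP-CT and at 1.21 CPM in the bicalutamide-resistant subline.

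The chromosomal neighbours were examined next. CST3, CST4, CST1, CST2 and CST5 lie in this order over 253045 bases of chromosome 20. Of 53 other genes that overlap the cluster or the 1000000 bases on either side, 8 were tested and 24 had no count in any library. Of the 8, 6 pass the count filter without VCaP-T, and all 6 passed the test between VCaP-T and VCaP-CT, where 65.3% of all genes passed. In VCaP-CT 5 were higher and 1 was lower, with a median log2 fold change of 0.56 beside 0.03 over all genes. On the CST3 side, THBD (thrombomodulin) was higher by 1.83 ± 0.22 (adjusted p = 3.34e-07), and NAPB, a factor of vesicle fusion at −405.2 kb from the CST2 start, changed by −1.71 ± 0.06 (adjusted p = 1.27e-15). On the CST5 side, the cystatin pseudogene CSTP1, 95.4 kb from the CST2 start, had 301 of its 303 counts in VCaP-T, and GGTLC1, a gamma-glutamyltransferase light chain gene at 162 kb, had 65 of its 101 counts there. Both passed the filter on low counts only through VCaP-T and are not among the 6. Whether CSTP1 counts are reads of a cystatin gene was not tested.

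Between VCaP-CT and the enzalutamide-resistant subline 1 of these 6 neighbours passed, as against 60.9% of all genes. It was ENSG00000270001, which lies inside CST3 on the same strand, so that its counts are uncertain, and it changed by −0.71 ± 0.27 (adjusted p = 0.0288). With bicalutamide resistance 3 of 6 passed, as against 53.2% of all genes. THBD was higher by 0.58 ± 0.17 (adjusted p = 0.00557), while LINC01431, a long non-coding RNA, changed by −0.94 ± 0.32 (adjusted p = 0.0171) and ENSG00000270001 by −0.84 ± 0.28 (adjusted p = 0.0168). From there to the doubly resistant subline 3 of 6 passed, as against 42.9%. LINC01431 was higher by 1.02 ± 0.31 (adjusted p = 0.011), while THBD changed by −0.51 ± 0.16 (adjusted p = 0.0136) and NAPB by −0.25 ± 0.07 (adjusted p = 0.00466).

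**Figure D4:**
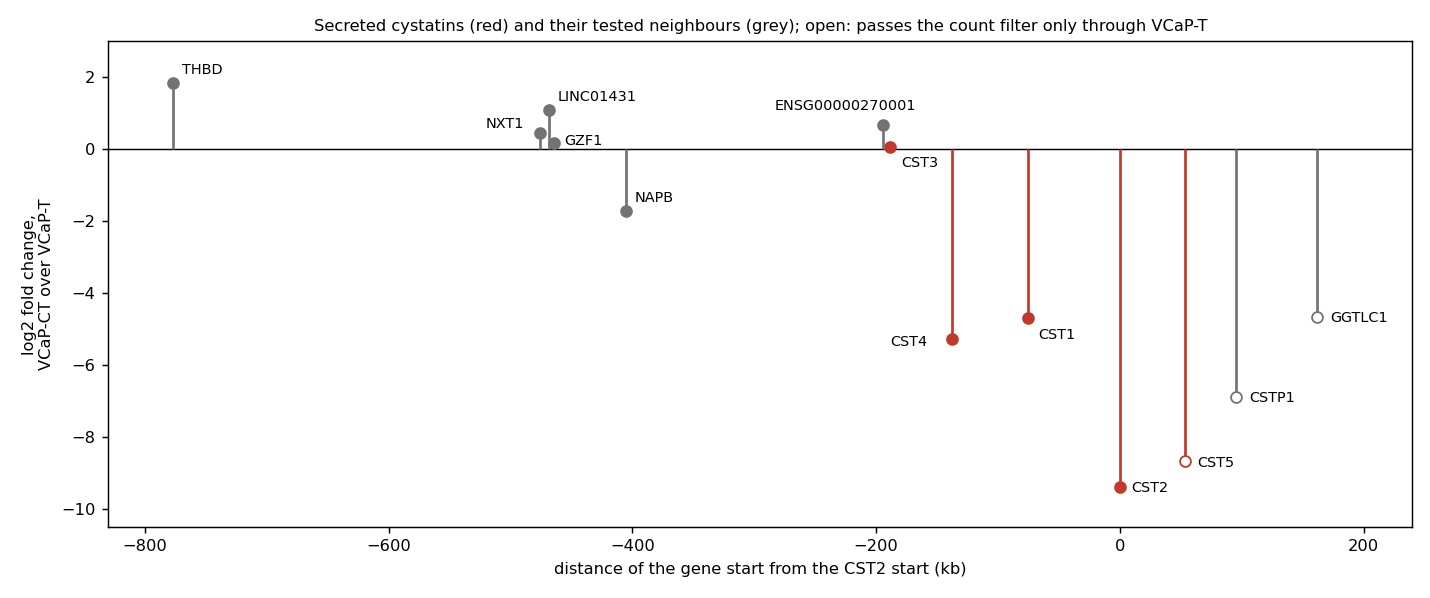
Log2 fold change between VCaP-T and VCaP-CT (positive is higher in VCaP-CT) of the 5 secreted cystatins of chromosome 20 (red) and their 8 tested neighbours (grey), against the distance of each gene start from that of CST2 in kb; open points passed the count filter only through VCaP-T. CST3 lies at 0.06, and CST4, CST1 and CST2 at −5.28, −4.68 and −9.39, in the comparison by which the family was chosen. The open points CST5, CSTP1 and GGTLC1 lie at or below −4.66. They passed only where VCaP-T is high, so only falls could appear. Of the 6 filled grey points 5 are higher and 1 is lower in VCaP-CT.

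Other inhibitors with a cystatin domain were followed in a list of 12 genes, of which 9 had a count and 3 were tested. These are CSTA and CSTB, the intracellular stefins, and KNG1, the gene of kininogen. CSTB was at 110.7 ± 3.0 CPM in VCaP-T and rose to 125.2 ± 2.5 CPM in VCaP-CT. The resistant sublines had 93.3 ± 2.6 (enzalutamide), 103.3 ± 4.6 (bicalutamide) and 130.2 ± 5.8 (both). CSTA was low, at 0.560 ± 0.046 CPM in VCaP-T. It reached 1.85 ± 0.34 CPM in VCaP-CT, a rise of 1.71 ± 0.2 (adjusted p = 1.31e-07), and highest after bicalutamide with 4.26 ± 0.55 CPM. KNG1 had 0.151 ± 0.134 CPM in VCaP-CT and 2.96 ± 0.52 in the enzalutamide-resistant subline, a rise of 4.24 ± 0.35 (adjusted p = 1.07e-09).

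From VCaP-T to VCaP-CT 2 of these 3 inhibitors rose and 0 fell, as against 65.3% of all genes called, with a median log2 fold change of 0.24 beside 0.03 over all genes. With enzalutamide resistance, where 60.9% of all genes passed, all 3 did, CSTA and CSTB lower (−1.62 ± 0.19 and −0.42 ± 0.05) and KNG1 higher. With bicalutamide resistance (53.2% of all genes) all 3 passed as well, CSTA and KNG1 higher (1.2 ± 0.14 and 2.22 ± 0.44) and CSTB lower (−0.28 ± 0.05). In the step to the doubly resistant subline (42.9% of all genes) 2 of 3 passed, and CSTA changed by −0.37 ± 0.13 (adjusted p = 0.0251) and CSTB by 0.33 ± 0.05 (adjusted p = 9.06e-06).

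The proteases that cystatins bind were followed in a list of 12, all with a count and 9 tested. From VCaP-T to VCaP-CT 5 of the 9 fell and 2 rose, where 65.3% of all genes passed, with a median log2 fold change of −0.45 beside 0.03 over all genes. LGMN (legumain) changed by −1.08 ± 0.06 (adjusted p = 3.39e-13), from 74.7 ± 3.4 to 35.3 ± 2.0 CPM, and CTSL (cathepsin L) by −0.84 ± 0.07 (adjusted p = 3.47e-10). CTSF (cathepsin F) rose by 1.19 ± 0.06 (adjusted p = 6.43e-14), from 89.3 ± 1.5 to 203.4 ± 10.9 CPM, and CTSK (cathepsin K) changed by −0.55 ± 0.16 (adjusted p = 0.00515). Over the same pair of sublines the log2 difference of CST2 was −9.39.

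With enzalutamide resistance 4 of the 9 proteases rose and 2 fell, where 60.9% of all genes passed, with a median of 0.1 beside −0.02 over all genes. CTSF changed by −1.84 ± 0.06 (adjusted p = 7.3e-17) to 56.6 ± 3.4 CPM, and CTSV (cathepsin V) rose by 1.2 ± 0.12 (adjusted p = 1.41e-08). CTSK rose by 0.63 ± 0.16 (adjusted p = 0.00163) and CTSB (cathepsin B) by 0.45 ± 0.06 (adjusted p = 4.89e-07). With bicalutamide resistance, where 53.2% of all genes passed, CTSL rose by 0.22 ± 0.07 (adjusted p = 0.0076) and 5 proteases fell, of which CTSF changed by −0.77 ± 0.05 and CTSH (cathepsin H) by −0.56 ± 0.05. In the step from there to the doubly resistant subline 3 of the 9 proteases rose and 2 fell, where 42.9% of all genes passed, with CTSB higher by 0.69 ± 0.06 (adjusted p = 2.5e-09).

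**Figure D5:**
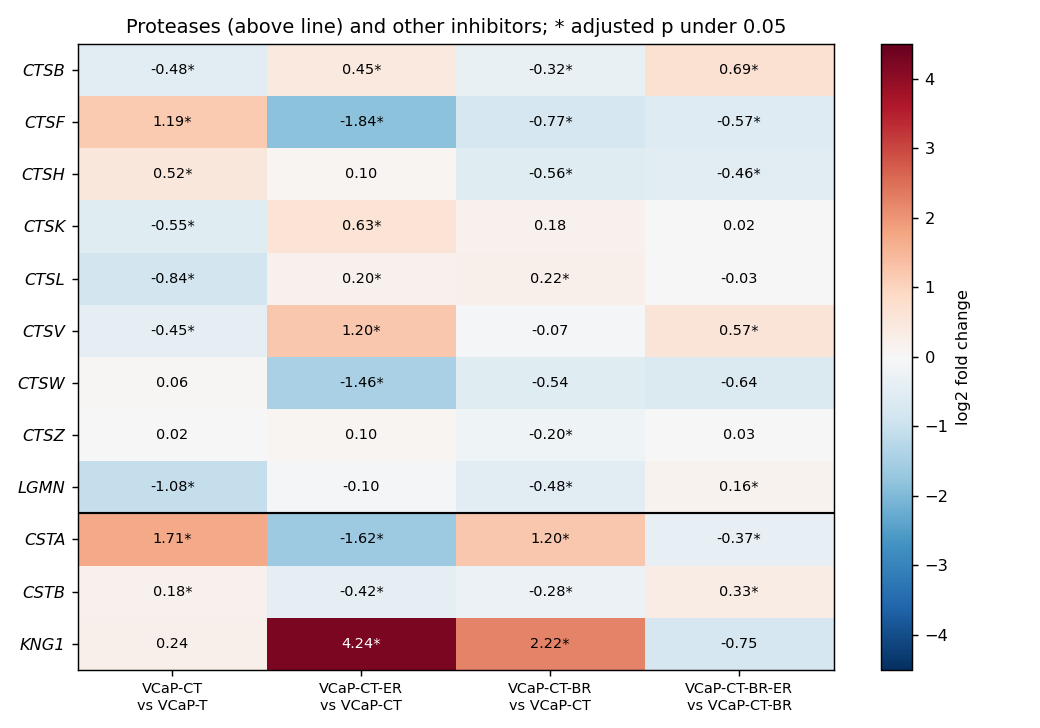
Log2 fold changes of 9 tested cysteine proteases (above the line) and 3 other cystatin-domain inhibitors (below) in the 4 steps between sublines; asterisks mark an adjusted p under 0.05. Values range from −1.84 (CTSF, with enzalutamide resistance) to 4.24 (KNG1, same step), and CTSF falls in each step after VCaP-CT.

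The genes whose pattern was most like that of each cystatin were ranked by Pearson's r of log2 CPM over the 15 libraries among 14652 genes. The libraries fall into 5 sublines, so the points are not independent and r is a description. For CST1, CST2, CST4 and CST5, r also carries the gap between VCaP-T and the later sublines, by which the family was chosen. CST2 was most like MLPH (melanophilin, r = 0.983), STEAP4 (a metalloreductase, 0.983), MAP4K3-DT, RENBP and ECHDC3. A high r does not mean a change of like size. From VCaP-T to VCaP-CT the mean went from 240.4 to 128.7 CPM for MLPH and from 134.9 to 1.75 CPM for STEAP4. CST1 was most like FZD8 (a Wnt receptor, 0.995), KCNH6 (a potassium channel, 0.993), PTPRN2, OGDHL and GLG1. CST4 shared KCNH6 (0.994) and FZD8 (0.991) with CST1 and MAP4K3-DT (0.991) with CST2, beside CACNA1B and DISP2. CST5 was most like AMER3 (0.995), TSTD2, TMEM121B, NMNAT2 and PDPK1. CST3 had other genes at the top, NLRX1 (0.971), ST14, the protease matriptase (0.962), TKT, the transketolase (0.961), OXLD1 and FOXP4. With Spearman's correlation 3 of the 5 genes of CST3 came up again (NLRX1, TKT and OXLD1) and 0 of those of CST1, CST2, CST4 and CST5.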

How the data were processed

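RNA of 15 VCaP libraries was sequenced in pairs, aligned by the authors to GRCh38 with STAR 2.5.4b and counted per gene with featureCounts 1.6.2 on GENCODE release 28, without strand and without fragments that map to several places. The deposited values are raw counts of fragments for 58381 genes, with no normalization. Read length is not given in the sources used here. Members and gene lists were chosen with earlier results of these data known. Symbols, transcripts and coding sequences came from GENCODE release 44 and promoters from RefSeq (GRCh38.p14).

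Counts were tested in R 4.3.3 with edgeR 4.0.16 (filterByExpr with a minimum count of 10, 19621 genes, TMM, 1 term per subline over all 15 libraries, two-sided quasi-likelihood tests, Benjamini-Hochberg adjustment), checked on simulated data. Comparisons with VCaP-T enter no test of the 6 cystatins. Standard errors of log2 fold changes were computed back from the test, as the absolute log2 fold change over the square root of the F statistic. Intervals of log2 fold changes are 95% and approximate, from these standard errors. Depth was 33665716 to 46935279 counts per library. Intervals of ratios and the floor of 3 counts cover counting error only, as no molecular identifiers were described. Named were all 6 cystatins, 5 genes most like each cystatin tested, and from each list the genes that passed in a step. If over 4 passed, these were the 4 with the largest change and an average log2 CPM of at least 0. The text names fewer, and NXT1 and GZF1 are shown only in the plot. CTSL with bicalutamide resistance, CSTP1 and GGTLC1 were named outside this rule. Alternatives were DESeq2 1.42.0, other filters and scalings, fits of only the sublines compared, a block for the replicate number, and fits that left out 1 library each. The length of the canonical transcript was added after the data were seen. Figures were drawn with matplotlib 3.10.9.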

Additional observations from a re-analysis of the deposited data

Results flagged for a closer look

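For 4 cystatins the change at the enzalutamide step differed between cells already resistant to bicalutamide and cells taken directly from VCaP-CT, by an edgeR interaction test over all genes. The difference between the steps was 5.54 on the log2 scale for CST2, 3.02 for CST1, 2.6 for CST4 and 0.31 for CST3, where 49.7% of all genes passed the same test. The direct step was a fall in all 4 genes, and in the step after bicalutamide 0 of them passed. The steps started from different levels. VCaP-CT had 15.4 CPM of CST2, 7.56 of CST1, 1.81 of CST4 and 148.1 of CST3. The bicalutamide-resistant subline already had 1.21, 0.867, 0.308 and 114.2 CPM, in the same order.

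No group had more than 3 libraries, so no library was examined as an outlier.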

How the results depend on the processing

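Each test on CST1 to CST5 was repeated under up to 22 alternatives, 15 of which leave out 1 library. Of these 741 repeats, 721 gave the same call, 20 lost a call and 0 reversed the direction of a call. Lost calls were 14 of CST5 and 6 of CST2, and their values stand in the report. Of the 721, 126 were of CST5, which passed the main filter only through VCaP-T. CST5 had 0 counts in the resistant sublines, so its calls among them could not change (20 repeats per comparison). With at least 10 counts required in every library, 2 cystatins were tested, CST1 and CST3. Both then passed in each of the 3 resistant sublines against VCaP-CT and in the difference between the steps (2 instead of 5, 5, 5 and 4, counts that include CST5 where it passed), and 0 passed in the bicalutamide-resistant or doubly resistant subline against the enzalutamide-resistant one (instead of 1). With the same filter 5 instead of 8 neighbours (CSTP1 and GGTLC1 included) passed between VCaP-T and VCaP-CT, since fewer were tested.

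With DESeq2, 0 instead of 1 cystatin passed in the doubly against the enzalutamide-resistant subline, and 1 instead of 2 other inhibitors in the doubly against the bicalutamide-resistant one. Of the neighbours, 2 instead of 1 passed between VCaP-CT-ER and VCaP-CT without a filter, with the filter of 10 counts, with library totals alone and with only the sublines compared. The cause was not tested. With each library left out in turn, 0 to 2 neighbours passed there (0 without VCaP-CT replicate 2 or without replicate 2 or 3 of VCaP-CT-ER). In the same fits 0 to 1 cystatins passed in the bicalutamide-resistant or doubly resistant subline against the enzalutamide-resistant one. Of the other inhibitors, 1 to 3 passed in the doubly against the bicalutamide-resistant subline (1 without VCaP-CT-BR replicate 2 or without replicate 1 or 3 of VCaP-CT-BR-ER). No count of genes over the whole table moved by more than 1.5 times.

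Nothing says what libraries with the same replicate number share. Centred levels of 13052 genes correlated by a mean of −0.005 where numbers matched and 0.003 where they did not, and 8 of 15 libraries were closest to their own number, so the numbers were not taken as pairs. With the replicate block 11861 genes passed with enzalutamide resistance, 10322 with bicalutamide resistance (both against VCaP-CT) and 8378 at the enzalutamide step after bicalutamide, and the block changed no call of a cystatin.

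Precision is limited by counts for CST2 and CST4 in the resistant sublines (1 to 81 and 7 to 17 counts per library) and for CST5 outside VCaP-T (0 to 3 counts).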

Other observations

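CST2 had 1 to 81 counts in the 9 resistant libraries. Ordered by the number that follows the letter S in the column name of each count file, these libraries had 9 (S number 94), 22 (95), 1 (96), 49 (97), 70 (98), 81 (99), 49 (100), 13 (101) and 7 (102) CST2 counts, so the highest value, in VCaP-CT-BR replicate 3, stood next to VCaP-CT-BR-ER replicate 1 and values were lower on both sides. The VCaP-T libraries carry the numbers 88 to 90 and the VCaP-CT libraries 91 to 93. In the same 9 libraries CST1 had 29 to 64 and CST4 7 to 17 counts. What the number stands for is not given in the sources used here, and its part in the CST2 counts was not tested.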
